A study of Mus musculus with 2 samples.

Results

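Nkx6.1 is a homeodomain transcription factor of the insulin-producing beta cells of the pancreatic islet, where it helps to keep beta cell identity and represses genes of other endocrine cells. Homeodomain proteins contact short AT-rich DNA motifs, and many of their sites lie in enhancers away from promoters. In chromatin immunoprecipitation followed by sequencing (ChIP-seq), a bound site appears as a pile of sequence tags, with tags of the forward strand on one side of the bound position and tags of the reverse strand on the other.

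The sites described here are the nuclear peaks at which the Nkx6.1 ChIP library exceeded the input library by 20-fold or more. They were chosen by dividing the deposited ChIP tag column by the deposited input tag column, and 355 of 15237 nuclear peaks qualified (2.33%). ChIP tags printed below are whole counts, made by dividing that ChIP column by its step, which is given with the processing. The fold keeps the undivided column. It is therefore lower than the printed ChIP tags over the input tags. The whole list holds 15239 peaks, of which 2 lie on the mitochondrial genome and were left out. As the ratio of ChIP to input chose the sites, their tags and folds are a description, and no test is made of them.

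The study compared 1 ChIP library, made with an antibody to Nkx-6.1, with 1 input library, which is sheared chromatin sequenced with no antibody. Per the series' design text both came from 1 set of islets of a mouse, and only the ChIP library carries a strain label, C57Bl/6. The labels state no age, sex or treatment, and islets mix beta cells with other endocrine cells. The ChIP library held 202780986 tags. With no replicate, intervals below cover counting error or the spread over peaks, never the spread between animals, and no p-value is given because peaks of 1 library are not replicates. The list names no gene, so sites are given by their mm9 position and the labelled tissue was not checked against marker genes.

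The 355 sites held a median of 688 ChIP tags (95% order-statistic interval 663 to 723, range 543 to 3152), against 170 (168 to 171) in the 14882 nuclear peaks under 20-fold. Their median fold over input was 24.5 (interquartile range 21.9 to 29.9). Most were close to the threshold: 267 sites (75.2%) lay between 20-fold and 30-fold. At 15-fold or more there were 742 nuclear peaks (4.87%), at 30-fold or more 88 (0.578%), and at 50-fold or more 11 (0.0722%).

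The input column stood at its minimum of 21.4 tags, read here as a value that the caller put in for every lower count, at 264 of the 355 sites (74.4%, exact interval 69.5 to 78.8) and at 9961 of the 14882 peaks under 20-fold (66.9%, 66.2 to 67.7). At such sites 543 ChIP tags were enough for 20-fold, and the fold is a lower limit. The other 91 sites had a median of 25 input tags (24 to 25, highest 78) and a median of 891 ChIP tags (819 to 995). Of the 464 nuclear peaks with 543 ChIP tags or more, 109 were under 20-fold because of their input, which had a median of 34 tags (32 to 35). These 109 tag-rich peaks are used below as the group most like the 20-fold sites.

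**Figure D1:**
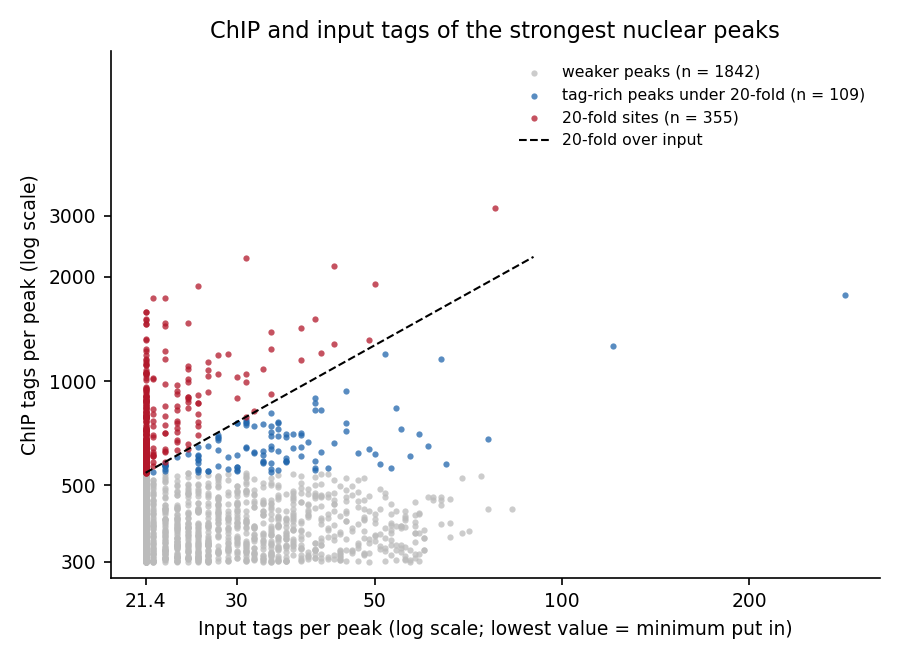
ChIP tags against input tags of nuclear peaks with 300 ChIP tags or more, on log axes, 1 point per peak, with the 20-fold line dashed. The 20-fold sites (red) fill the column at the input minimum of 21.4 from 543 ChIP tags upwards, and the 109 tag-rich peaks under 20-fold (blue) lie below the line at higher input.

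The threshold cuts through a continuous range. The weakest sites inside it lay on chromosome 12 at 45382766 to 45382898 and on chromosome 5 at 102019607 to 102019739, each with 543 ChIP tags at the input minimum and a fold of 20.0047. Next came chromosome 1 at 99871650 to 99871782, with 787 ChIP tags, 31 input tags and a fold of 20.0129 from the undivided column. Just outside lay peaks on chromosome 8 at 117051825, chromosome 4 at 46862963 and chromosome 9 at 46239207, each with 542 ChIP tags at the input minimum and 19.9673-fold. A difference of 1 tag is far inside counting error (95% Poisson interval of 543 tags, 498 to 591).

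Counting error leaves the membership of many sites unresolved. The lower end of the 95% interval stayed at 20-fold or more for 230 of the 355 sites (64.8%). These were 198 of the 264 sites at the input minimum, whose interval holds the input fixed, and 32 of the 91 with counted input. In turn, 294 of the 14882 peaks under 20-fold had an interval that reached 20-fold. This number is itself a minimum, as it takes 21.4 as the input of the 9961 peaks at the minimum, whose fold has no upper limit.

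The 10 sites with the highest fold, from 54.0 to 62.4, lay on 9 chromosomes. The input stood at the minimum for 6 of them. All 10 had local folds between 38.3 and 126.3, a local fold being the ChIP signal over that of the surrounding 10000 bp, and focus ratios between 0.763 and 0.981. The focus ratio is the share of tags that lie on the side of the peak centre proper to their strand, so a value near 1 marks a sharply centred site. None of the 10 had another 20-fold site as its nearest peak, beside a share of 2.33% such sites over all nuclear peaks. The nearest peaks lay between 1.83 and 137.6 kb away with folds from 4.46 to 17.6.

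These 10 sites differed in shape. The site on chromosome 2 at 92929920 to 92930052 had 2268 ChIP tags (2176 to 2363) and 31 input tags, with a focus ratio of 0.981, the highest of the 355, and a local fold of 126.3. It lay 137.6 kb from its nearest peak. The site on chromosome 5 at 29947393 to 29947525 had 1501 ChIP tags (1426 to 1579) at the input minimum, where its fold of 55.3 is a lower limit, with a focus ratio of 0.763 and a local fold of 38.3. The site on chromosome 12 at 21432461 to 21432593, with 1466 ChIP tags (1392 to 1543) at the input minimum and a focus ratio of 0.953, had a peak of 176 tags only 1.83 kb away. The highest deposited folds thus included sharply and loosely centred sites, and sites with and without a close neighbour.

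The focus ratio of the 355 sites was above that of weaker peaks and close to that of peaks with as many tags. Its median was 0.851 (0.842 to 0.862, range 0.615 to 0.981), against 0.773 (0.771 to 0.775) in the peaks under 20-fold and 0.852 (0.830 to 0.877) in the 109 tag-rich peaks. A ratio of 0.9 or more was held by 83 of the 355 sites (23.4%, exact Clopper-Pearson interval 19.1 to 28.1), by 671 of 14882 peaks under 20-fold (4.51%, 4.18 to 4.85) and by 22 of the 109 tag-rich peaks (20.2%, 13.1 to 28.9). Ratios under 0.7 occurred at 13 sites (3.66%, 1.96 to 6.18), against 19.5% (18.9 to 20.2) of the peaks under 20-fold. Among the tag-rich peaks 6 of 109 were under 0.7 (5.50%, 2.05 to 11.6). Peaks with as many ChIP tags thus had like focus ratios on either side of 20-fold. The focus ratio is read from the same ChIP tags, and fewer tags also measure it less precisely.

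Within the 355 sites the focus ratio varied widely at any given fold. Across the 355 sites, which all come from 1 library, Pearson's r between fold and focus ratio was 0.17 (Spearman's rho 0.15). The median was 0.846 (0.836 to 0.855) at 20-fold to 25-fold and 0.904 (0.818 to 0.953) at the 11 sites of 50-fold or more, with intervals that overlapped. Besides the chromosome 2 site above, the highest ratios were 0.969 on chromosome 1 at 129785605 to 129785737, with 887 ChIP tags, and 0.967 on chromosome 7 at 86739937 to 86740069, with 2152. The lowest were 0.615 on chromosome 2 at 18956390 to 18956522, with 698 ChIP tags, 0.617 on chromosome 15 at 52147807 to 52147939, with 718, and 0.633 on chromosome 12 at 39668516 to 39668648, with 819. None of these 3 loosely centred sites had another listed peak within 10 kb (nearest at 212.9, 12.7 and 34.0 kb).

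**Figure D2:**
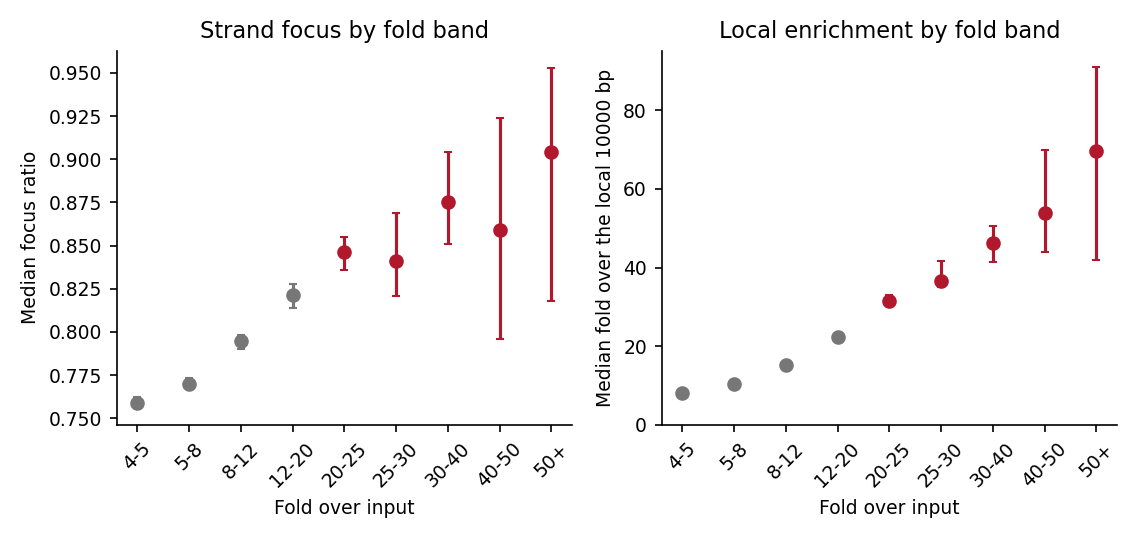
Median focus ratio (left) and median fold over the local 10000 bp (right) of nuclear peaks in bands of fold over input; bars are 95% order-statistic intervals over peaks, and red marks 20-fold or more. The focus ratio goes from 0.759 in the lowest band to 0.846 at 20-fold to 25-fold, and the local fold from 8.01 to 69.5 at 50-fold or more.

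The local fold had a median of 35.5 (34.1 to 36.6) at the 20-fold sites, 9.82 (9.73 to 9.89) in the peaks under 20-fold and 31.2 (29.2 to 33.9) in the tag-rich peaks. Between 543 and 887 ChIP tags it was 33.0 (31.8 to 34.5) at the 20-fold sites and 30.8 (28.99 to 33.7) in the tag-rich peaks, with intervals that overlapped. It is computed from the ChIP tags that the selection used. Dividing each site's ChIP tags by its local fold gives the tags that its surroundings stand for. That value had a median of 19.97 (19.4 to 20.6) at the 20-fold sites and 17.1 (17.0 to 17.2) in the peaks under 20-fold, while their median ChIP tags were 688 and 170. The surroundings thus differed far less than the sites. The value never fell below 13.5, close to the 13.3 tags that the file header expects per peak by chance.

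The highest local folds were 149.98 on chromosome 7 at 86739937 to 86740069, 126.3 at the chromosome 2 site named above and 115.5 on chromosome 6 at 21899984 to 21900116. That chromosome 6 site also had the most input tags of the 355, 78, followed by 50 on chromosome 5 at 4004993 to 4005125 and 49 on chromosome 19 at 28491193 to 28491325. The last of these had 1313 ChIP tags and a fold of 21.1 with an exact conditional interval of 15.9 to 28.7. The lowest local folds were 15.2 on chromosome 3 at 51692591 to 51692723, 15.3 on chromosome 16 at 28760993 to 28761125 and 15.9 on chromosome 9 at 67626402 to 67626534. Of these, the last pair had another peak at 2.03 and 1.32 kb, whose tags fall inside the surrounding 10000 bp. Across the 355 sites focus ratio and local fold had a Pearson's r of 0.50 (Spearman's rho 0.54), both being read from the same tags.

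The normalized column counts fewer tags than the column used against input, and the header does not state the window of either. The share of tags it holds had a median of 0.514 (0.509 to 0.520) at the 20-fold sites, 0.511 (0.511 to 0.513) in the peaks under 20-fold and 0.513 (0.503 to 0.527) in the tag-rich peaks. The peak score, for which at most 10 tags per position were considered, amounted to 0.985 per ChIP tag (0.983 to 0.987) at the 20-fold sites, 0.984 (0.980 to 0.988) in the tag-rich peaks and 1.01 (1.01 to 1.01) in the peaks under 20-fold, and at the 10 highest folds it ranged from 0.720 to 0.925. The ranking by score differed from that by fold. Of the 355 nuclear peaks with the highest scores, 284 (80%) were 20-fold sites. The top 10 of both rankings shared 7. What made the rankings differ was not tested.

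The median clonal fold was lower at the 20-fold sites than in the tag-rich peaks, with single values that overlapped widely. Per the file header it states how far a peak falls under the number of unique tag positions expected for its tags, so a lower value means that tags came from more positions. It had a median of 0.65 (0.64 to 0.66, range 0.53 to 0.83) at the 20-fold sites, 0.72 (0.71 to 0.73, range 0.62 to 1.55) in the tag-rich peaks and 0.86 (0.86 to 0.87) in all peaks under 20-fold. Between 543 and 887 ChIP tags it was 0.66 (0.66 to 0.67) at 269 of the 20-fold sites and 0.72 (0.71 to 0.73) at 103 tag-rich peaks, whose median ChIP tags were 638 (623 to 657) and 619 (605 to 643). Over the same tags the focus ratio was 0.845 (0.834 to 0.852) and 0.848 (0.830 to 0.873). At like tags the intervals of the clonal fold were thus separate and those of the focus ratio overlapped. As the groups differ in input by the selection, this is a description.

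The same order by input held at peaks that the 20-fold rule did not select. Between 300 and 542 ChIP tags the clonal fold was 0.74 (0.74 to 0.74) at 925 peaks with input at the minimum, 0.80 (0.79 to 0.81) at 444 peaks with 22 to 29 input tags and 0.85 (0.84 to 0.86) at 473 peaks with 30 or more. Between 200 and 299 ChIP tags the medians were 0.80 (0.80 to 0.81), 0.88 (0.87 to 0.88) and 0.93 (0.93 to 0.94). In each of these bands the 3 intervals were separate, so the lower clonal fold at low input was also seen below the threshold. These bands were chosen after the values were seen. Between 543 and 887 ChIP tags the clonal fold interval at the minimum (0.66 to 0.67) touched that at 22 to 29 input tags (0.67 to 0.70). The focus ratio also differed by input in each band below 300 ChIP tags. Between 200 and 299 ChIP tags it was 0.791 (0.785 to 0.795) at the minimum and 0.774 (0.768 to 0.784) at 22 to 29 input tags. Between 150 and 199 these values were 0.771 (0.767 to 0.774) and 0.758 (0.75 to 0.761). Between 109 and 149 they were 0.764 (0.762 to 0.767) and 0.742 (0.733 to 0.75). Between 300 and 542 ChIP tags the intervals of the focus ratio overlapped, with 0.812 (0.806 to 0.82) and 0.805 (0.796 to 0.814). They also overlapped between 543 and 887, with 0.842 (0.828 to 0.851) and 0.8505 (0.83 to 0.872).

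**Figure D3:**
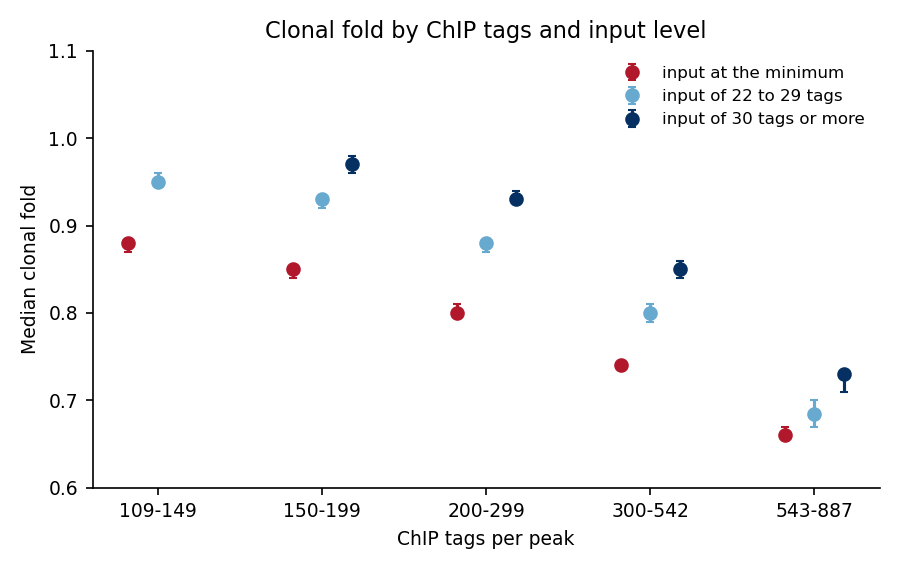
Median clonal fold of nuclear peaks in 5 bands of ChIP tags, split by input tags; bars are 95% order-statistic intervals over peaks, and a set of fewer than 10 peaks is not drawn. In each band the peaks with input at the minimum have the lowest median, from 0.88 at 109 to 149 tags down to 0.66 at 543 to 887 tags.

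Most 20-fold sites lay alone, and about as often as other peaks. No other nuclear peak centre lay within 10 kb of 265 of the 355 sites, which is 74.6% (exact interval 69.8 to 79.1), against 71.9% (71.1 to 72.6) of the peaks under 20-fold and 69.7% (60.2 to 78.2) of the tag-rich peaks. The difference from the peaks under 20-fold was 2.78 percentage points (95% Newcombe interval -2.04 to 7.09), an interval that holds 0 and allows a share up to 7.09 points higher. With 25 kb searched, 49.9% (44.5 to 55.2) lay alone against 51.6% (50.8 to 52.4), and with 100 kb 15.5% (11.9 to 19.7) against 17.6% (17.0 to 18.3), so the sign of the difference turned. Within the sites the share alone was 75% (68.3 to 81.0) at 20-fold to 25-fold, 81.3% (70.7 to 89.4) at 25-fold to 30-fold, 66.7% (53.7 to 78.0) at 30-fold to 40-fold, 78.6% (49.2 to 95.3) at 40-fold to 50-fold and 63.6% (30.8 to 89.1) at 50-fold or more. These intervals overlapped and gave no order.

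**Figure D4:**
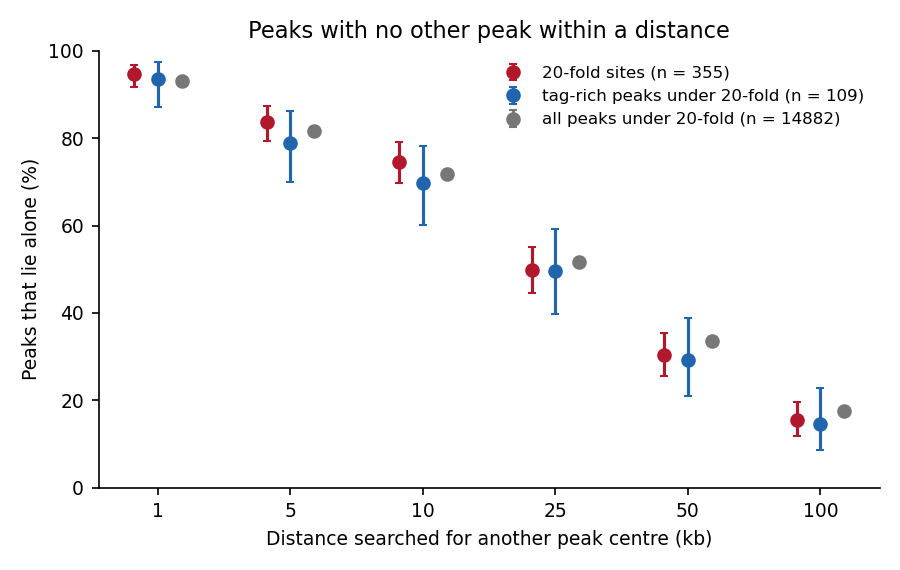
Share of peaks with no other nuclear peak centre within 1 to 100 kb, for 20-fold sites, tag-rich peaks under 20-fold and all peaks under 20-fold; bars are exact 95% Clopper-Pearson intervals. At 10 kb the shares are 74.6%, 69.7% and 71.9%, and the intervals of the 20-fold sites and the tag-rich peaks overlap at every distance.

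Solitary sites and those in company had like folds and focus ratios. Sites with no peak within 10 kb had a median fold of 24.4 (23.8 to 25.3) and a focus ratio of 0.851 (0.843 to 0.863), and the 90 sites with one had 24.8 (23.4 to 26.9) and 0.850 (0.833 to 0.874). Their local folds were 36.5 (35.2 to 38.6) and 31.0 (28.3 to 33.6), which is partly built in, as a neighbour's tags count toward the surroundings. The most remote sites lay on chromosome 3 at 147541669 to 147541801, 1002.5 kb from any other peak and with 566 ChIP tags, on chromosome 5 at 98830516 to 98830648, at 823.0 kb with 877 tags, and on chromosome 9 at 19426328 to 19426460, at 763.2 kb with 829 tags. Over wider stretches the numbers of other peaks were alike, with a median of 9 (8 to 9) within 500 kb of a 20-fold site and 9 (9 to 9) within 500 kb of a peak under 20-fold.

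The peaks next to a 20-fold site were of ordinary strength. For the 90 sites with a peak within 10 kb, the nearest had a median of 178 ChIP tags (166 to 187), a fold of 5.96 (5.56 to 6.57) and a focus ratio of 0.781 (0.757 to 0.792). The nearest peaks of the 4187 peaks under 20-fold with one within 10 kb had 179 ChIP tags (176 to 182), a fold of 5.80 (5.73 to 5.89) and a focus ratio of 0.768 (0.765 to 0.771). The nearest peak was itself a 20-fold site for 2 of the 90 (2.22%, 0.270 to 7.80), close to the 2.33% of all nuclear peaks. These 2 sites form 1 pair on chromosome 16, each the nearest peak of the other, while the interval treats them as independent. A 20-fold site held 4.37 times the tags of its nearest peak (median of 90, 3.75 to 4.66), and 7 of the 90 held under 2 times. This ratio is largely built in by the rule. Each 20-fold site held at least 543 ChIP tags, and peaks under 20-fold had a median of 170. The caller kept peaks at least 266 bp apart and asked for 4-fold over the local region.

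Linking peaks at most 10 kb apart, 89 of 1919 groups held a 20-fold site and 1 group held more than 1. That group is a pair on chromosome 16, with a site at 23833941 to 23834073 of 564 ChIP tags and 20.8-fold and a site at 23842833 to 23842965 of 787 tags and 28.99-fold, 8.89 kb apart. Their focus ratios were 0.809 and 0.760. The next closest were the pair on chromosome 5 described below, 12.8 kb apart, and a pair on chromosome 2, at 34107917 to 34108049 with 741 tags and at 34142407 to 34142539 with 609 tags, 34.5 kb apart with no peak between. Another 20-fold site lay within 100 kb of 21 sites (5.92%, 3.70 to 8.90) and within 1000 kb of 101 (28.5%, 23.8 to 33.5). The median distance to the nearest other 20-fold site was 2.15 Mb. These counts and this distance were not set against like values for other peaks. Within 100 kb lay a mean of 2.62 other peaks around a 20-fold site and 2.42 around a peak under 20-fold. Of all nuclear peaks, 2.33% were 20-fold sites.

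Groups of 5 or more peaks held a single 20-fold site where they held one, and by the rule that site had the highest fold of its group. Such a site lay in 1 of 15 groups of 5 peaks, 1 of 3 groups of 6 and 2 of 2 groups of 7. These were 1 of 75, 1 of 18 and 2 of 14 peaks, beside 2.33% of all nuclear peaks. Of the 67 sites in groups of 2 peaks, the pair on chromosome 16 gave 2 and all others stood beside a weaker peak, and 18 sites lay in groups of 3. In the group of 7 peaks on chromosome 9, the 20-fold site at 61218200 to 61218332 had 797 ChIP tags and a focus ratio of 0.940, and the next strongest, 3.02 kb away, had 460 tags and 9.07-fold over 40 input tags. In the group of 7 on chromosome 10, the site at 59490435 to 59490567 had 707 tags and the next strongest 308. In the group of 6 on chromosome 8, the site at 123045084 to 123045216 stood at the very end, with 555 tags against at most 214 in the others, 6.79 to 33.3 kb away. In a group of 5 on chromosome 10, the sites at 68634013 and 68643824 had 536 and 597 tags, 9.81 kb apart, and only the second passed 20-fold.

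A stretch of chromosome 5, singled out after its values were seen, held strong sites side by side. Over 168.0 kb from 101926277 to 102094309 it had 13 peaks, of which 3 were 20-fold sites, at 101926277 with 884 ChIP tags, at 102019607 with 543 and at 102032404 with 718. The site of 543 tags had a twin 426 bp away with 538 tags, at 19.8-fold just outside the threshold. The focus ratio was 0.739 at the first of this pair and 0.897 at its twin, and the median over the 13 peaks was 0.746 (range 0.605 to 0.897). In this stretch 4 pairs of peaks lay under 500 bp apart. Tags from neighbours this close can count for both peaks, and no value here separates them.

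The 20-fold sites were found on all autosomes and on chromosome X. On autosomes their share of a chromosome's peaks ran from 1.30% on chromosome 19 (6 of 462 peaks, exact interval 0.478 to 2.81) and 1.47% on chromosome 7 (13 of 886, 0.784 to 2.50) to 3.05% on chromosome 5 (30 of 984, 2.07 to 4.32) and 2.96% on chromosome 17 (18 of 608, 1.76 to 4.64). Chromosome 2 had the most sites, 34 of 1225 peaks (2.78%, 1.93 to 3.86). The interval of each of the 20 chromosomes held 2.33%, the share over all nuclear peaks. Chromosome X had 1 site of 192 peaks (0.521%, 0.0132 to 2.87), against 354 of 15045 on autosomes (2.35%, 2.12 to 2.61). That site, at 46742232 to 46742364, had 635 ChIP tags at the input minimum, 23.4-fold, with a focus ratio of 0.893 and a local fold of 46.9.

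**Figure D5:**
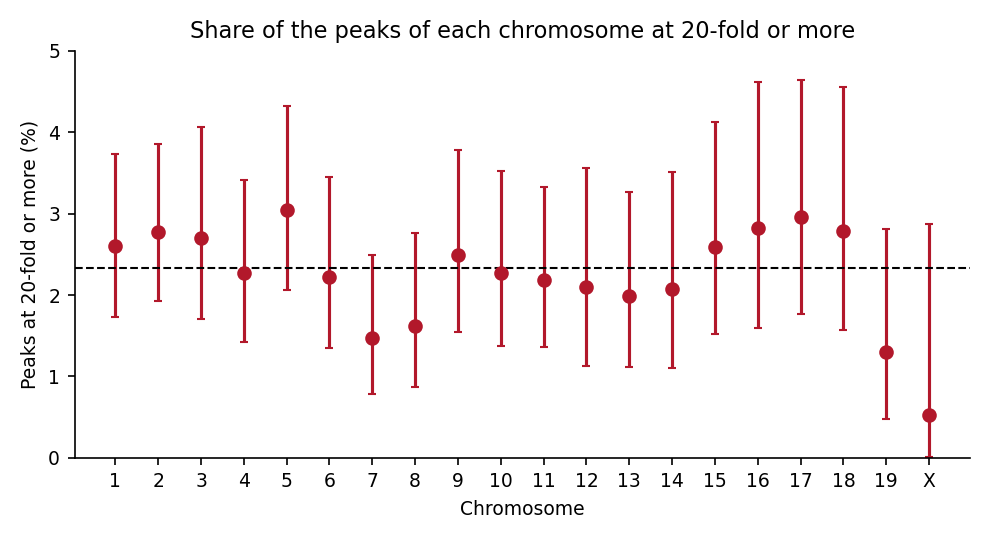
Share of each chromosome's peaks that reached 20-fold over input, in percent, with exact 95% Clopper-Pearson intervals; the dashed line is the share over all nuclear peaks. Every interval holds the line at 2.33%, including that of chromosome X, where 1 of 192 peaks qualified.

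On the scale of 1 Mb windows, 290 windows held 1 such site, 31 held 2 and 1 held 3. That window, on chromosome 4 from 148000001 to 149000000, had 26 peaks in all and a highest fold of 24.5. Pairs of high folds in 1 window occurred on chromosome 2 from 101000001 to 102000000, with a median of 48.8-fold, and on chromosome 1 from 129000001 to 130000000, with 36.9-fold. The longest stretch between consecutive 20-fold sites, 41.3 Mb, lay on chromosome 8 between 74223913 and 115509273 and held 257 weaker peaks. A chromosome region without such a site is thus not one without peaks. The window counts were not set against like counts for other peaks.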

How the data were processed

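The submitters' processing notes name Bowtie, HOMER and build mm9, without versions. HOMER findPeaks called 133 bp peaks at a false discovery rate of 0.001, requiring 4-fold and a Poisson p-value of at most 0.0001 over input and over the local 10000 bp, per the file headers. The authors scaled the normalized signal to 10000000 tags. The deposited ChIP signal steps by 0.788, and dividing by this step gave whole tags within 0.1 for 100% of peaks. The input signal, focus ratio (a fraction), score and ratios (local fold, clonal fold) were taken as the authors deposited them. Their deposited p-value over input was written as 0 for all 355 sites and was not used. The deposited fold, rounded, would give 353 sites.

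Neighbours were counted between peak centres. Medians carry order-statistic intervals, shares exact Clopper-Pearson intervals, differences of shares Newcombe intervals, and folds exact conditional intervals (Poisson on ChIP tags alone where input was at the minimum), all at 95% and checked on simulated data. Named sites followed fixed ranks by fold, focus ratio, local fold, input, isolation and closeness; the sites and lists were chosen with earlier results of these data known. Gene and motif comparisons need mm9 genes or sequence and were not made. Computations used scipy 1.17.1, numpy 2.4.6 and pandas 2.3.3 under Python 3.11.15, and matplotlib 3.10.9 for plots.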

Additional observations from a re-analysis of the deposited data

Results flagged for a closer look

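The 2 mitochondrial peaks were outside the comparisons above and showed ChIP tags above input. The peak at 15401 to 15533 stood at 5.04-fold and the peak at 16006 to 16138 at 10.1-fold, both far under 20-fold.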

How the results depend on the processing

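The number of sites was 353 by the deposited fold and 313 with 1 unit added to each deposited column before dividing. It was 230 by the lower end of the interval, 742 at 15-fold and 88 at 30-fold. The focus ratio difference from the rest, 0.078, was 0.102 at 30-fold, 0.091 with input above the minimum and -0.001 against the tag-rich peaks. The local fold difference, 25.6, was 20.1 at 15-fold, 39.0 at 30-fold, 33.3 with input above the minimum and 4.28 against the tag-rich peaks. The share alone differed by 2.78 points, and by -3.77 at 30-fold, -2.63 with input above the minimum, -3.15 within 50 kb and -2.15 within 100 kb. The interval held 0 under all 12 alternatives for this share. Chromosome X held 0 sites at 30-fold and 0 with input above the minimum, which allows up to 1.90% of its 192 peaks by the exact interval. The causes were not tested. The fold of the nearest peak, 5.96, stayed between 5.64 and 6.56 under 4 alternatives. No paired analysis was possible because ChIP and input consist of 1 library each. The motif alternative was not run. Folds at the input minimum are lower limits, so their order is not resolved.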
